A study of Mus musculus with 6 samples.

Results

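The genes described here were the autosomal protein-coding genes whose mRNA stood highest above the control when 4T1 cells, a mouse mammary carcinoma line, expressed Limch1 from a lentivirus, after the families and single genes that had already drawn attention were set aside. A gene was taken when its mean in the Limch1-expressing libraries was at least 5 FPKM, when (Limch1_OE mean + 1)/(Vector mean + 1) was at least 1.7, and when the lowest Limch1_OE library lay above the highest Vector library. FPKM is a fragment count divided by transcript length and library size, here summed over the transcripts listed for a gene. Genes with symbols starting in Zfp, Rpl, Rps or Mrp were left out, as were Limch1, Cp, Cxcl5, Ddah2, Cavin2, Edn1, Gsta4, H60b, Scd2, Ifi27 and Lcn2. Of 26094 genes in the table, 24 met these conditions. Because the conditions use the difference between the groups, the levels and ratios of the 24 genes are given as a description and carry no test.

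The series compared 3 libraries of 4T1 cells carrying mouse Limch1 in the vector pLVX-IRES-neo (Limch1_OE) with 3 libraries of 4T1 cells carrying the same vector without an insert (Vector). Both were made with virus packaged in HEK293T cells, a human embryonic kidney line, and both were selected with antibiotic from 48 h after infection. The labels give no age, animal or time of harvest, and do not say whether a group was 1 selected line or several, or whether its libraries were separate cultures. P-values below therefore rest on library-to-library spread alone, and that spread may be technical.

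LIMCH1 binds actin stress fibres, carries calponin-homology and LIM domains, and promotes the activity of non-muscle myosin. The 24 genes are no single pathway. They include enzymes that oxidise, hydrolyse or reduce foreign compounds and lipids, receptors and secreted proteins of the cell surface, and nuclear proteins that act on RNA. A few of the nuclear genes belong to families known to switch between an mRNA that encodes the protein and one with an early stop codon, which nonsense-mediated decay (NMD) degrades.

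Limch1 itself stood at 23.96, 23.31 and 25.69 FPKM in Limch1_OE replicates 1 to 3 and at 0.25, 0.15 and 0.10 FPKM in Vector replicates 1 to 3, as the labels say it should. Listed FPKM summed to between 414837 and 425064 per library, and how deeply each was sequenced is unknown. All 9 listed epithelial markers averaged above 1 FPKM, and their sum was 2032 to 2295 FPKM in Limch1_OE and 2192 to 2238 FPKM in Vector. Among them Epcam and Cdh1 fell by 0.44 and 0.18 on the log2(FPKM + 1) scale (limma adjusted p = 0.000244 and 0.0143) and Krt7 rose by 0.37 (adjusted p = 0.00315). Of the fibroblast markers, 4 of 6 averaged under 1 FPKM, Col1a1 among them, and the sum of the 6 was 9.6 to 10.62 FPKM against 7.35 to 7.71 FPKM. Postn rose (0.41, limma adjusted p = 0.00318), also on coding transcripts alone (0.38, adjusted p = 0.0101), and Pdgfra did not pass (0.23, adjusted p = 0.0881). Of the leukocyte markers, 5 of 7 averaged under 1 FPKM, Ptprc among them, with sums of 35.66 to 40.26 FPKM against 29.61 to 34.9 FPKM. The other 2 moved in opposite directions, Cd68 up (0.31, limma adjusted p = 0.0239) and Cd14 down (-0.28, adjusted p = 0.0255). On coding transcripts alone Krt7 and Cd14 did not pass (adjusted p = 0.0792 and 0.0781). All 5 endothelial markers and all 3 adipocyte and muscle markers averaged under 1 FPKM. The fibroblast and leukocyte sums were higher in Limch1_OE, the former mostly through Postn and the latter through Cd68. Their part in the values below was not tested. In such bulk libraries a change in the number of cells of a type and a change in RNA per cell cannot be told apart.

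The conditions were narrow against the whole table. Of 7981 autosomal protein-coding genes with a Limch1_OE mean of at least 5 FPKM, 28.3% had every Limch1_OE library above every Vector library, and 0.413% (33 genes) reached the ratio of 1.7 as well. Of these 33, 9 were left out by name and 24 remained. Gm20716 reached the level and the ratio with overlapping libraries, and 26 genes with the same values were non-coding or not autosomal. Across 11842 tested genes, limma with Benjamini-Hochberg adjustment at 0.05 called 20.2% higher in Limch1_OE (2388 genes) and 14.4% lower (1706 genes). Rescaling by a trimmed mean of M values turned the balance to 1855 higher and 2087 lower, leaving out Limch1_OE replicate 2 reduced the higher calls to 1578, and leaving out Vector replicate 1 reduced them to 1590. Differences beyond 1 on the log2(FPKM + 1) scale were rarer upward than downward, with 40 genes above 1 and 219 below -1, and 9 of the 40 were among the 24 genes.

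**Figure D1:**
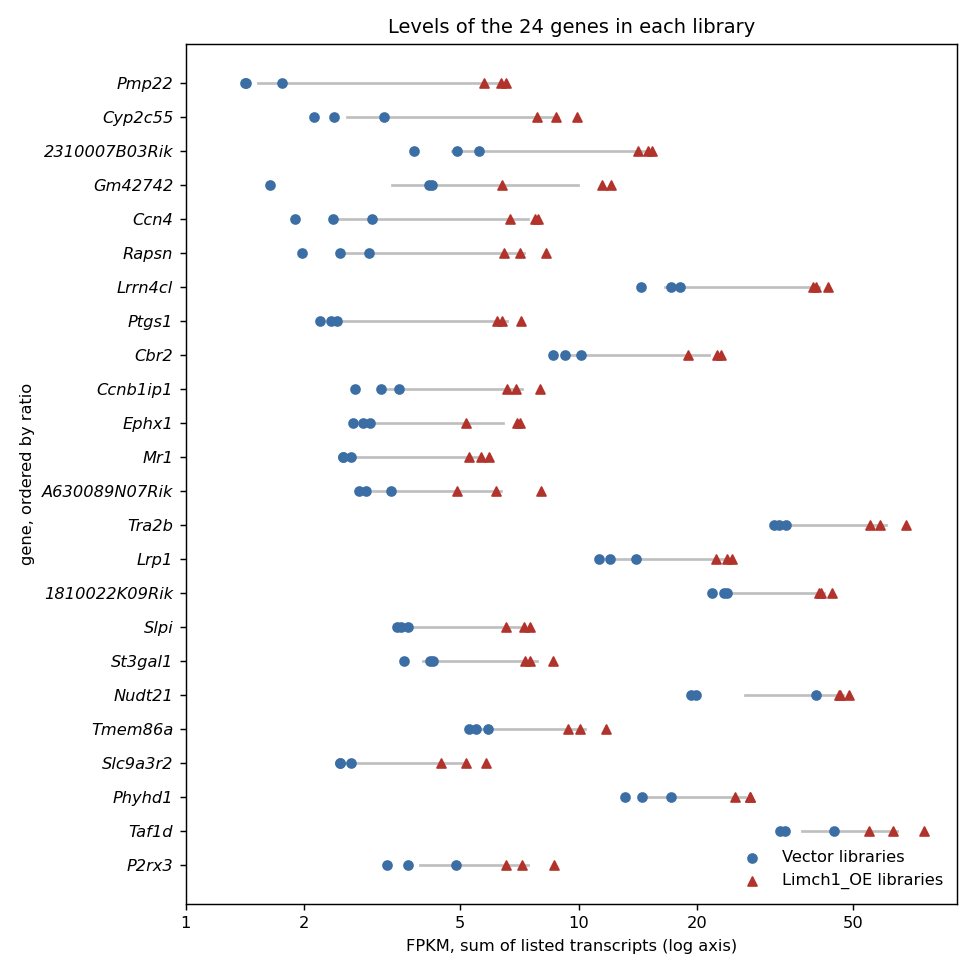
FPKM of each of the 24 genes (vertical axis, ordered by ratio) in the 3 Limch1_OE libraries (red triangles) and the 3 Vector libraries (blue circles) on a log axis; grey lines join the group means. Pmp22 is the highest by ratio and P2rx3 the lowest, and Nudt21 has 1 Vector library near its Limch1_OE libraries.

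The 24 genes were mostly of low abundance. Their median was 8.327 FPKM in Limch1_OE and 3.742 FPKM in Vector, where the median of the 7981 genes was 17.86 FPKM in Limch1_OE, and 58.3% of the 24 lay under 10 FPKM against 24% of the 7981. The median log2 ratio was 0.89, with a range of 0.77 to 1.51, beside a median log2 difference of 0.04 over all tested genes. The coefficient of variation (SD over mean) had a median of 9.46% in Limch1_OE and 11.4% in Vector, and exceeded 20% in at least 1 group for 6 genes. Together the 24 genes made up 0.101% to 0.11% of all listed FPKM in Limch1_OE and 0.05% to 0.0578% in Vector. At the edge of the conditions, Phyhd1 (1.73), Taf1d (1.73) and P2rx3 (1.71) lay just inside the ratio of 1.7, and Ifnar2 (1.697), Cdsn (1.693) and Dtx4 (1.68) lay just outside it. Among the 24 genes, Limch1_OE replicate 1 was the highest of the 3 for 10, replicate 2 for 11 and replicate 3 for 3, and replicate 3 was the lowest for 13. No such ranks over all tested genes are given beside these, so they describe the 24 genes only.

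**Figure D2:**
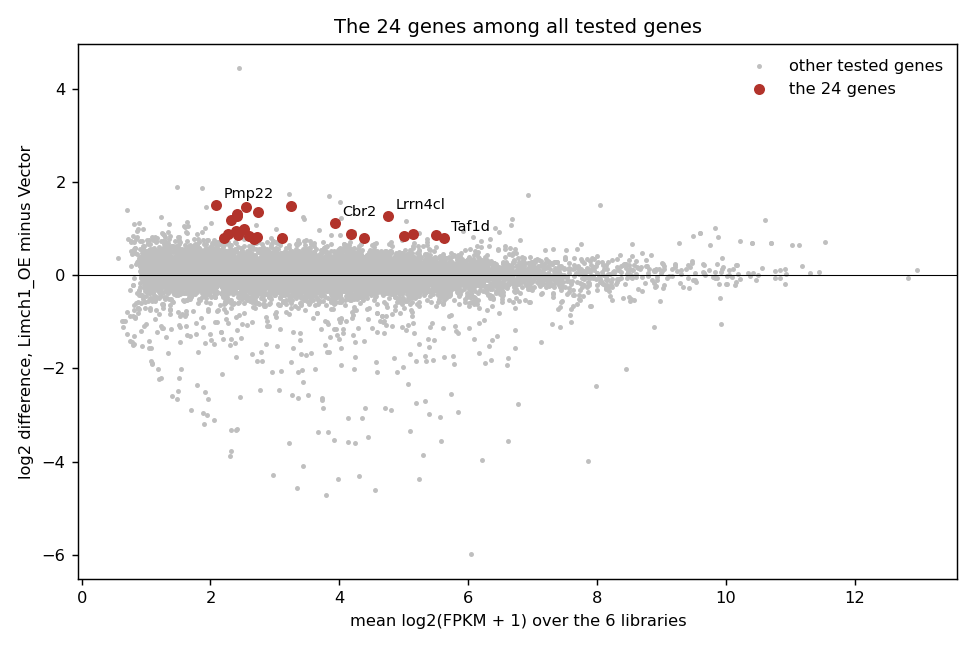
Mean log2(FPKM + 1) over the 6 libraries (horizontal) and log2 difference, Limch1_OE minus Vector (vertical), for all 11842 tested genes (grey) and the 24 genes (red). The 24 genes lie between P2rx3 (0.78) and Pmp22 (1.51) on the vertical axis; the topmost grey point is Limch1, and decreases reach further than increases.

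Enzymes of drug, lipid and prostanoid metabolism formed one set among the 24. Cyp2c55, a cytochrome P450 of the CYP2C family, on chromosome 19 (chr19:39007019-39042693, mm10, as for all positions here), stood at 9.90, 8.78 and 7.84 FPKM in Limch1_OE and at 3.20, 2.38 and 2.12 FPKM in Vector. The ratio was 2.76, and the single listed transcript was the coding one. Ephx1, microsomal epoxide hydrolase, which turns epoxides into diols, stood at 5.16, 6.96 and 7.09 FPKM against 2.94, 2.82 and 2.67 FPKM (ratio 1.94), also in a single coding transcript. Limch1_OE replicate 1 was the lowest of its group for this gene.

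Cbr2, a carbonyl reductase of the short-chain dehydrogenase family (chr11:120729489-120732114), stood at 19.01, 22.47 and 23.08 FPKM in Limch1_OE and at 9.26, 10.16 and 8.61 FPKM in Vector, a ratio of 2.18. Ptgs1, the constitutive cyclooxygenase COX-1, which makes the prostanoid precursor prostaglandin H, stood at 7.12, 6.39 and 6.18 FPKM against 2.42, 2.2 and 2.34 FPKM (ratio 2.28). In both genes most of the signal was 1 coding transcript. Cbr2-201 held 98.7% of the Limch1_OE signal, and Ptgs1-201 held 88.2% with means of 5.79 FPKM (SD 0.254) and 2.13 FPKM (SD 0.131) over 3 libraries each.

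Tmem86a, a lysoplasmalogenase that cleaves vinyl-ether lysolipids, stood at 9.42, 11.71 and 10.11 FPKM against 5.25, 5.88 and 5.49 FPKM (ratio 1.75). Phyhd1, a dioxygenase related to phytanoyl-CoA hydroxylase, stood at 24.96, 27.37 and 27.25 FPKM against 13.16, 17.16 and 14.50 FPKM (ratio 1.73). The 11 listed Phyhd1 transcripts share 33.0% to 98.3% of their bases with exons of the same-strand genes Gm28035 and Gm28038, so its level is uncertain.

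The stretch before the start site is shown for Pmp22 and Cyp2c55, which had the highest ratios, and for Ephx1, which shares the metabolic group with Cyp2c55. Each line gives the 250 bases before the RefSeq start (GRCm38.p6, the mm10 assembly), read 5′ to 3′ on the gene's strand, at chr11:63131207-63131456 (plus strand), chr19:39006769-39007018 (plus strand) and chr1:181017570-181017819 (minus strand). Capitals mark matches, on either strand, to the short motifs named after the sequences.
Pmp22: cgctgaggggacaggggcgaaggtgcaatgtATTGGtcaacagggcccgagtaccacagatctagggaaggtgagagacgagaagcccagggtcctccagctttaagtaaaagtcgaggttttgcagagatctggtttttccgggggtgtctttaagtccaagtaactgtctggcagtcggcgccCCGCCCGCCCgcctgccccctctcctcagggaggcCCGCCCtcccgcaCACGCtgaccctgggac
Cyp2c55: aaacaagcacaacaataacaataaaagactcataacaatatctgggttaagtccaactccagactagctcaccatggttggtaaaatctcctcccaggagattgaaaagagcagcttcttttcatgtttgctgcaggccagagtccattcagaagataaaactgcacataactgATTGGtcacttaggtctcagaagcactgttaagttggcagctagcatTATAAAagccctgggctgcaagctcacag
Ephx1: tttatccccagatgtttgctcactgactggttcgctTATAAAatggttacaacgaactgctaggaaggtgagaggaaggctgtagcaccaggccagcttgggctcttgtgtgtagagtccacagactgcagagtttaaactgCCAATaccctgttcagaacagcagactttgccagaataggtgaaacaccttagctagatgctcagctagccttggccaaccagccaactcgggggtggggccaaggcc

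In these stretches the capitals are a TATA box (TATAAA) that starts 29 bases before the Cyp2c55 start and 214 before that of Ephx1, a CCAAT box (CCAAT, or ATTGG on the other strand) in all 3, and in Pmp22 also 3 SP1 boxes (GGGCGG, read as CCGCCC, of which 2 overlap) and 1 aryl hydrocarbon receptor core (GCGTG, read as CACGC). RefSeq windows of 300 bases, 250 before and 50 after the start, were matched for 17 of the 24 genes. Motif shares in them were near those over 17491 windows of protein-coding genes. The 2 sets were not matched. Each of the 17 windows was the one nearest the start of the gene's most abundant transcript. The comparison took the first window of each gene by position, whatever the gene's expression. TATAAA was in 11.8% against 13.3%, CCAAT in 41.2% against 39.0%, GGGCGG in 47.1% against 45.9%, GCGTG in 35.3% against 38.0%, and the antioxidant response element core TGACNNNGC in 17.6% against 13.0%. The E-box CACGTG was in 5.88% against 7.75% and the interferon-stimulated element core GAAANNGAA in 5.88% against 8.19%. The AP-1 motif TGANTCA (7.05% of all windows) and the TCF/LEF motif CTTTGAT (3.28%) were in none of the 17. The observed over expected CpG ratio was under 0.6 in 64.7% of the 17 windows and in 52.4% of all windows, with medians of 0.4 and 0.565. It was lowest in Cyp2c55 and Phyhd1, at 0.00.

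Genes of the cell surface and the secreted space made up the largest set. Pmp22, a membrane protein with 4 spans that is best known from myelin, where its dosage causes inherited neuropathy, had the highest ratio of all, 2.85 (chr11:63128982-63159547). It stood at 5.73, 6.55 and 6.33 FPKM in Limch1_OE and at 1.41, 1.76 and 1.42 FPKM in Vector. The lowest Limch1_OE library was 3.26 times the highest Vector library. Nearly all of this was Pmp22-201, and 2 of the 4 principal transcripts of the annotation are listed.

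Lrrn4cl, a small membrane protein with a fibronectin type III domain, was the most abundant surface gene of the set and stood at 40.28, 43.19 and 39.63 FPKM in Limch1_OE and at 18.12, 17.21 and 14.46 FPKM in Vector (ratio 2.39). Ccn4 encodes WISP1, a secreted matricellular protein induced by Wnt, and stood at 7.75, 7.86 and 6.69 FPKM against 2.37, 2.97 and 1.90 FPKM (ratio 2.47). Lrp1, a large endocytic receptor for lipoproteins and protease-inhibitor complexes, stood at 22.35, 24.64 and 23.82 FPKM against 12.04, 14.02 and 11.27 FPKM (ratio 1.83). In each of these genes the annotated principal coding transcripts carried the difference.

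Rapsn encodes rapsyn, which clusters acetylcholine receptors at the neuromuscular junction. It stood at 6.44, 8.24 and 7.11 FPKM in Limch1_OE and at 2.93, 1.97 and 2.47 FPKM in Vector (ratio 2.39). P2rx3, an ATP-gated cation channel of sensory neurons, had the lowest ratio (1.71), with 6.52, 7.16 and 8.65 FPKM against 3.26, 3.68 and 4.88 FPKM. Its coding transcript stood at 3.84, 4.14 and 4.99 FPKM against 2.43, 2.09 and 1.91 FPKM, and short processed transcripts made up the rest. Both genes are known from excitable cells, and both were listed at several FPKM in every Limch1_OE library.

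Slpi, a secreted inhibitor of neutrophil elastase, stood at 7.5, 7.27 and 6.53 FPKM against 3.44, 3.52 and 3.67 FPKM (ratio 1.78). St3gal1, which adds sialic acid to O-linked glycans, stood at 7.53, 8.60 and 7.31 FPKM against 4.18, 4.25 and 3.60 FPKM (ratio 1.76). Slc9a3r2, the scaffold NHERF2 that ties membrane transporters to ezrin, stood at 5.16, 5.80 and 4.45 FPKM against 2.63, 2.47 and 2.47 FPKM (ratio 1.74), and its Limch1_OE mean of just over 5 FPKM lay near the level condition. All of these ratios lay near the condition of 1.7, and the conditions required that no gene overlap between groups.

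Mr1 encodes a class I-like molecule that presents vitamin B metabolites to mucosal-associated invariant T cells. It stood at 5.90, 5.27 and 5.64 FPKM in Limch1_OE and at 2.51, 2.51 and 2.64 FPKM in Vector (ratio 1.86), yet its coding transcript did not follow. Mr1-201, the transcript that encodes the full protein, stood at 0.70, 0.91 and 1.18 FPKM against 1.36, 0.69 and 1.0 FPKM, and these values overlapped. Mr1-204, annotated as an NMD target, stood at 4.42, 3.60 and 3.42 FPKM against 1.0, 1.7 and 0.91 FPKM. On coding transcripts alone the log2 ratio of Mr1 was -0.06, so the gene's place among the 24 rests on transcripts that do not encode the full protein.

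Taf1d, Tra2b and Nudt21, which act in the nucleus or on RNA, had the highest Limch1_OE means of the 24. Tra2b encodes transformer-2 beta, an activator of splicing that is known to limit its own level through an extra exon with an early stop. It stood at 68.02, 58.54 and 55.32 FPKM in Limch1_OE and at 31.46, 32.40 and 33.72 FPKM in Vector (ratio 1.84, chr16:22244549-22266005). The full-length coding transcript Tra2b-204 stood at 28.63, 28.65 and 27.61 FPKM against 18.92, 20.16 and 19.70 FPKM. The early-stop transcript Tra2b-206 stood at 32.40, 23.44 and 22.70 FPKM against 10.14, 10.64 and 10.88 FPKM. Both were apart between the groups, and the share of NMD and retained-intron transcripts in all Tra2b FPKM was 53.4%, 47.6% and 46.4% in Limch1_OE and 37.0%, 36.8% and 36.1% in Vector.

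The stop-bearing stretches of these transcripts are shown because they set the 2 forms of each gene apart. Tra2b-206 has an exon of 276 bases (chr16:22258986-22259261, minus strand) that Tra2b-204 lacks, and its reading frame ends there after 38 codons in place of 288. In Mr1-204 an exon holds 76 of the 261 bases that Mr1-201 uses (chr1:155137699-155137774, minus strand), 185 bases being skipped, and the frame ends in the next exon after 54 codons in place of 341. Each line runs 5′ to 3′ on the transcript's strand from the start of that exon to the stop codon, in capitals, which lies at chr16:22259181-22259183 in Tra2b and at chr1:155136817-155136819 in Mr1 (mm10, GENCODE M21 models).
Tra2b-206: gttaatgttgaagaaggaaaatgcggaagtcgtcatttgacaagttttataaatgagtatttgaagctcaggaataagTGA
Mr1-204: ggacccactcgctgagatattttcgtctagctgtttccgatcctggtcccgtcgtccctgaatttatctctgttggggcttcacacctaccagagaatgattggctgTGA

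Over the whole table the same classes were compared by their share of all listed FPKM. NMD transcripts held 2.17% to 2.34% in Limch1_OE and 1.79% to 2.34% in Vector, and retained-intron transcripts held 3.25% to 3.71% and 3.26% to 3.46%, with overlapping libraries for both. Coding transcripts held 80.9% to 81.3% in Limch1_OE and 82.4% to 82.8% in Vector, and here the libraries did not overlap. No depth is known, so the split of a gene's reads between its transcripts is as the deposited estimates give it.

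Nudt21 encodes the small subunit of cleavage factor Im, which helps to choose where an mRNA is cut and polyadenylated. It stood at 48.73, 46.08 and 46.40 FPKM in Limch1_OE and at 19.96, 40.18 and 19.38 FPKM in Vector (ratio 1.75), so Vector replicate 2 was about as high as the other group. The principal transcript Nudt21-201, of 5010 bases, stood at 17.36, 16.44 and 16.16 FPKM against 19.60, 12.49 and 19.04 FPKM. The shorter Nudt21-204, of 1184 bases, stood at 30.77, 29.18 and 30.03 FPKM in Limch1_OE and was listed at 0.00, 27.62 and 0.23 FPKM in Vector. Only in the high Vector library was Nudt21-204 listed at a level like that of the other group, and the principal transcript had nearly the same mean in both groups (16.65 and 17.04 FPKM).

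Because FPKM divides by length, the same reads count for more when they are assigned to a short transcript. Weighting each transcript's FPKM by its length over the gene's mean transcript length takes that division out, and gave Nudt21 42.21, 39.97 and 39.80 in Limch1_OE and 33.57, 32.52 and 32.66 in Vector. The 3 Vector libraries were then alike and the ratio was 1.228. This weighting, chosen after the values were seen, left 20 of the 24 genes at a ratio of at least 1.7. Gm42742 (1.438), Tra2b (1.672), Nudt21 and Taf1d (1.642) did not reach it. All 24 still had every Limch1_OE library above every Vector library, which the conditions had required of the plain sums.

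Taf1d, a subunit of the factor that recruits RNA polymerase I to ribosomal DNA, stood at 75.58, 63.07 and 55.04 FPKM in Limch1_OE and at 32.66, 33.61 and 44.67 FPKM in Vector (ratio 1.73). It had the most listed signal of the 24 in Limch1_OE, spread over 14 transcripts. Taf1d-211, a short coding form, stood at 29.68, 22.99 and 14.20 FPKM against 7.36, 9.22 and 10.29 FPKM. The NMD form Taf1d-204 stood at 12.38, 15.35 and 11.89 FPKM and was listed at 0.00, 6.19 and 12.13 FPKM in Vector, where Vector replicate 3 matched the other group. The principal transcript Taf1d-201 overlapped, at 2.84, 2.39 and 3.77 FPKM against 3.32, 2.53 and 4.98 FPKM. Several small RNA genes lie within Taf1d exons on the same strand, and exons of 4931406C07Rik and Cep295 overlap it on the other, so reads of these genes could be counted here. Both opposite-strand genes rose by less, 0.21 and 0.32 (limma adjusted p = 0.0256 and 0.0268), and on coding transcripts alone Cep295 did not pass (0.20, adjusted p = 0.132).

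Ccnb1ip1, a ubiquitin ligase known as HEI10 that is needed for meiotic crossovers, stood at 7.97, 6.58 and 6.92 FPKM in Limch1_OE and at 3.48, 2.69 and 3.14 FPKM in Vector (ratio 1.99). Of its 2 listed transcripts, Ccnb1ip1-202 shares 52.5% of its bases with the RNase P RNA gene Rpph1. Ccnb1ip1-201, which shares none, was apart as well, at 5.75, 4.37 and 4.49 FPKM against 1.98, 1.67 and 2.47 FPKM.

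**Figure D3:**
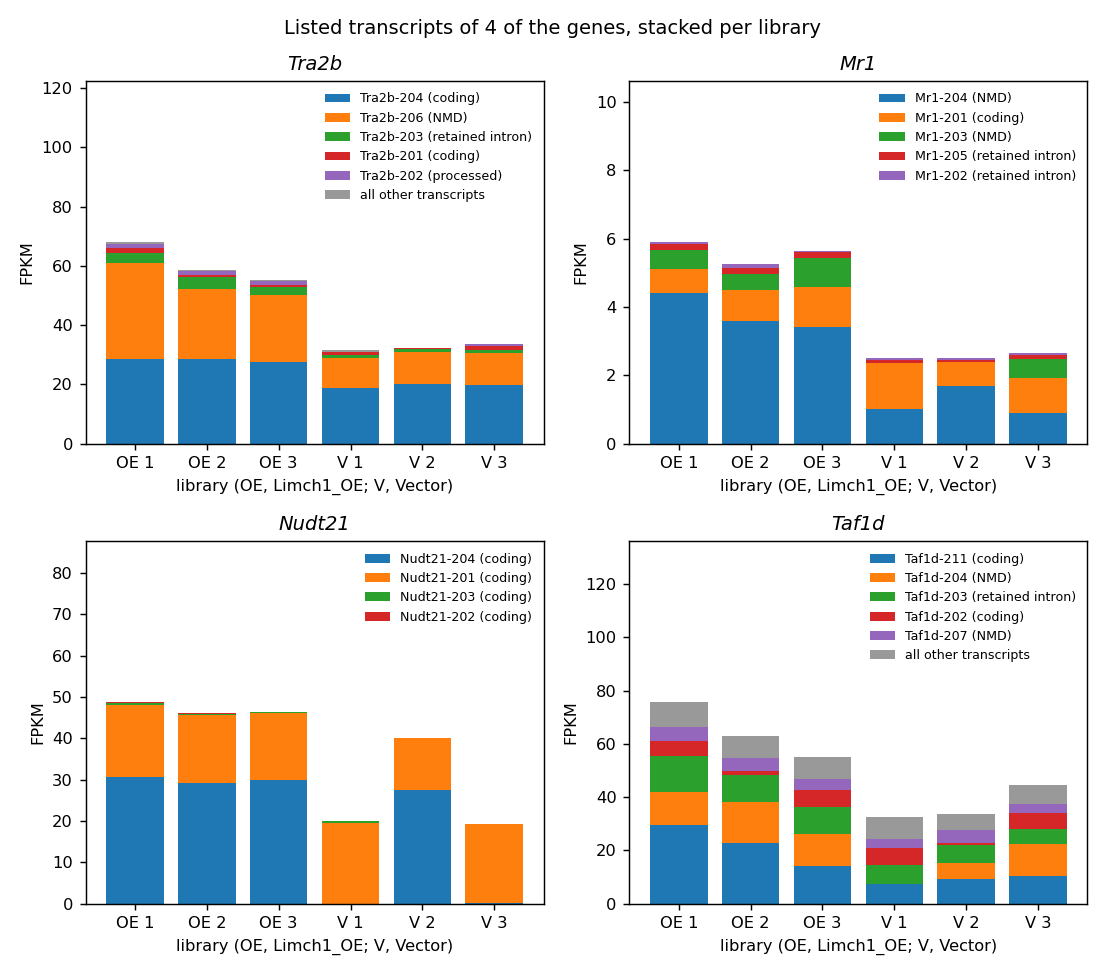
FPKM of the listed transcripts of Tra2b, Mr1, Nudt21 and Taf1d (vertical, each panel with its own scale from 0), stacked per library; OE 1 to OE 3 are Limch1_OE replicates and V 1 to V 3 Vector replicates, and NMD marks transcripts annotated for nonsense-mediated decay. Orange NMD signal is larger in all Limch1_OE libraries for Tra2b, the blue NMD form carries the Mr1 difference, and Nudt21-204 is near 0 in V 1 and V 3 and present in V 2.

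Of the 4 genes with provisional names, 2310007B03Rik (Mab21l4 in RefSeq, on chromosome 1) had the third highest ratio, 2.76. It stood at 15.05, 15.42 and 14.20 FPKM in Limch1_OE and at 4.90, 5.57 and 3.81 FPKM in Vector. The shorter of its 2 coding transcripts, 2310007B03Rik-202, stood at 10.72, 9.73 and 9.90 FPKM against 1.38, 4.10 and 1.96 FPKM. The libraries of this transcript did not overlap between groups. It held 67.9% of the gene's sum in Limch1_OE and 52.1% in Vector. The gene was chosen on that sum, so this is no separate support.

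Gm42742 stood at 12.09, 11.48 and 6.39 FPKM in Limch1_OE and at 1.64, 4.23 and 4.16 FPKM in Vector (ratio 2.53), with replicate 3 well below the other Limch1_OE libraries. Its transcript Gm42742-205 lies wholly (100.0% of its bases) within exons of Pagr1a and Pagr1b on the same strand, and Gm42742-201 shares 95.9%. Pagr1a was listed at 1.52, 2.91 and 2.81 FPKM in Limch1_OE and at 7.34, 0.40 and 1.81 FPKM in Vector, with a log2 difference of 0.06 that did not pass (limma adjusted p = 0.938). The genes cannot be told apart from these values, and the Gm42742 level is uncertain.

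A630089N07Rik stood at 6.15, 8.0 and 4.90 FPKM against 2.76, 3.32 and 2.88 FPKM (ratio 1.84). The high value of Limch1_OE replicate 2 included 3.72 FPKM of A630089N07Rik-202, which was listed at 0 in the other 5 libraries, and the annotated principal transcript is not listed. 1810022K09Rik stood at 44.20, 41.49 and 41.03 FPKM against 21.85, 23.46 and 23.86 FPKM (ratio 1.8), with coefficients of variation of 4.06% and 4.61%. The end of its last exon overlaps E2f5, a cell-cycle transcription factor, on the other strand by a few bases, and E2f5 rose by 0.31 ± 0.069 (log2 difference ± SE, limma adjusted p = 0.00889).

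Relatives by name, the other genes of a member's symbol series, moved in both directions. Of 97 such relatives 54 were tested, and 5 (9.26%, against 20.2% over the table) rose and 9 (16.7%, against 14.4%) fell, with a median log2 difference of 0.03. Without Limch1_OE replicate 2, or without Vector replicate 1, 3 rose. St3gal3, which sialylates N-linked glycans, rose by 0.70 ± 0.082 (limma adjusted p = 0.000393), from 2.34, 2.29 and 2.07 FPKM in Vector to 4.02, 4.52 and 4.21 FPKM in Limch1_OE. Taf9 and Taf7, subunits of the RNA polymerase II factor TFIID that share a name with Taf1d, fell by 0.90 and 0.54 (adjusted p = 0.0229 and 0.00422), and Taf9 did not pass without Limch1_OE replicate 1, Vector replicate 1 or Vector replicate 2, with adjusted p up to 0.484 over its alternatives. Ccn2 and Lrp11, which fell, are described with their families.

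Partners and relatives by function were taken from 12 lists written with the 24 genes known. Counts in each list stand beside 20.2% higher and 14.4% lower over all tested genes, with a median log2 difference of 0.04. The splicing list around Tra2b holds SR proteins, SR-related proteins and their kinases. Of 19 tested genes besides Tra2b, 10 rose and 1 fell, with a median log2 difference of 0.27. Srpk2, an SR protein kinase, rose by 0.66 ± 0.058 (adjusted p = 6.583e-05), and stood at 20.61, 20.90 and 18.93 FPKM against 12.06, 12.71 and 12.24 FPKM. Srsf5 rose by 0.58 and Srsf6 by 0.52 (adjusted p = 0.000142 and 0.000694), and with 1 transcript per gene Srsf5 did not pass (adjusted p = 0.104). Tra2a, the paralog of Tra2b, fell by 0.30 (adjusted p = 0.00953). On coding transcripts alone 5 of the 19 rose and 0 fell by limma with adjustment (7 and 0 at an unadjusted p under 0.05), and Tra2a turned to 0.95 without passing (adjusted p = 0.211). With 1 transcript per gene 3 rose.

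In 15 of these 19 genes the mean share of NMD and retained-intron transcripts was higher in Limch1_OE, in 6 of them every Limch1_OE library lay above every Vector library, and in 0 of them every one lay below. As a share of the 18 genes with any such signal these were 83.3%, 33.3% and 0%. Over 6979 tested genes with such signal the shares were 68.3%, 15.6% and 2.69%, so most genes of the table also had the higher mean share in Limch1_OE. Srrm2, a scaffold of nuclear speckles, had 21%, 19.2% and 19.4% of its FPKM in such transcripts in Limch1_OE and 9.02%, 11% and 11.3% in Vector. Srsf11 had 14.5%, 15.6% and 15.9% against 10.6%, 9.94% and 9.17%. Srsf5 did not share this, with 26.9%, 21.1% and 16.3% against 24.8%, 23.2% and 20.9%. No test was made of these shares. Srrm2 and Srsf11 were named for their higher shares in Limch1_OE than in Vector, after their values were seen.

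For Nudt21, the list of cleavage and polyadenylation factors had 18 other tested genes, of which 8 rose and 1 fell, with a median of 0.19. Cstf2t, a subunit of the cleavage stimulation factor, rose by 0.47 ± 0.061 (adjusted p = 0.000632) and Pcf11, a termination factor, by 0.41 (adjusted p = 0.0096), both named after their values were seen. Cpsf6, the direct partner of Nudt21 in cleavage factor Im, stood at 25.00, 21.42 and 22.34 FPKM against 20.57, 22.18 and 21 FPKM, overlapped and did not pass (log2 difference 0.10 ± 0.066, adjusted p = 0.262). The gene that fell was Cpsf2 (-0.18, adjusted p = 0.0238), which did not pass without Limch1_OE replicate 2 or 3 or Vector replicate 1 or 3. On coding transcripts alone 4 rose and 1 fell. With 1 transcript per gene 2 rose, and Pcf11 did not pass (adjusted p = 0.0879). Among 13 other genes of RNA polymerase I initiation, listed for Taf1d, 2 rose and 1 fell, with a median of 0.08, and without Limch1_OE replicate 2 or 3 or Vector replicate 3, 2 fell.

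In most lists around the surface and secreted genes more members of the list fell than rose. In the list of the LDL receptor family with its chaperones and ligands, around Lrp1, 0 of 16 rose by limma with adjustment (2 at an unadjusted p under 0.05) and 6 fell, with a median of -0.15. Without Limch1_OE replicate 3, 1 rose. Lrp11, a receptor of the family, fell by 0.60 ± 0.072 (adjusted p = 0.00044), at 2.79, 2.82 and 2.80 FPKM against 4.68, 4.91 and 4.68 FPKM. Sorl1, Calr, Plau and Plaur were also among those that fell. The related genes Lrp5, Lrp6, Lrp8, Lrp10 and Lrp12 did not pass in either direction. Ccn2, connective tissue growth factor, is the close relative of Ccn4 and fell by 0.62 ± 0.042 (adjusted p = 9.969e-06), at 55.97, 55.11 and 56.05 FPKM against 87.36, 87.24 and 84.36 FPKM. Of the 6 CCN genes, Ccn1 was the other one tested, and it did not pass (-0.09, adjusted p = 0.18).

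For Pmp22, the list of myelin and PMP22-family tetraspan proteins had 8 other tested genes, of which 5 fell and 1 rose, with a median of -0.38. Mal2, a transport protein of epithelial cells, fell by 1.84 ± 0.074 (adjusted p = 2.455e-07), at 2.68, 2.46 and 2.31 FPKM against 11.55, 10.87 and 11.89 FPKM. Emp1, a family member of Pmp22, fell by 0.53 (adjusted p = 0.000107), but not past the threshold on coding transcripts alone (-0.37, adjusted p = 0.0897) or with 1 transcript per gene (-0.37, adjusted p = 0.156). Emp3 was the gene that rose (0.32, adjusted p = 0.0363), and it did not pass without Limch1_OE replicate 3 or without any 1 of the Vector libraries. Of 8 secretory protease inhibitors listed for Slpi, 2 rose and 4 fell, with a median of -0.13. Without Limch1_OE replicate 3, Vector replicate 1 or Vector replicate 2, 1 rose and 2 fell, without Limch1_OE replicate 1 2 fell, and without Limch1_OE replicate 2 1 rose.

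In the sialyltransferase list more genes rose than fell. Besides St3gal1, 4 of 12 tested genes rose and 0 fell by limma with adjustment (4 and 2 at an unadjusted p under 0.05), with a median of 0.18. Without Limch1_OE replicate 2, 2 rose. After rescaling by the trimmed mean of M values 2 fell. St6galnac6, which sialylates gangliosides and O-linked glycans, rose by 0.68 ± 0.14 (adjusted p = 0.00671), at 4.83, 4.01 and 6.09 FPKM against 2.43, 2.46 and 3.28 FPKM, and did not pass with 1 transcript per gene (adjusted p = 0.0744). St3gal3 is given above. For Slc9a3r2, 3 of 4 tested ezrin-family and NHERF partners fell, with a median of -0.27. Its closest relative Slc9a3r1, NHERF1, fell by 0.50 (adjusted p = 0.00102), at 23.81, 25.70 and 27.54 FPKM against 39.21, 36.76 and 34.13 FPKM.

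In the lists for Ptgs1, Rapsn and P2rx3 most listed genes were under 1 FPKM in both groups. Of the prostanoid list for Ptgs1, 9 of 16 listed genes were under 1 FPKM in both groups, and of 6 tested genes 0 rose by limma, adjusted or not, and 2 fell. Slco2a1, the prostaglandin transporter, fell by 0.86 ± 0.068 (adjusted p = 3.146e-05), at 12.80, 12.58 and 12.83 FPKM against 24.87, 25.61 and 21.68 FPKM. Ptgs2, the inducible cyclooxygenase, stood at 64.13, 61.36 and 57.04 FPKM against 66.90, 63.42 and 66.44 FPKM and did not pass (-0.11 ± 0.054, adjusted p = 0.154). For Rapsn, 2 of the receptor-clustering genes were tested, and Agrn fell by 0.38 (adjusted p = 0.000375). Of 3 tested P2 receptors and nucleotidases 0 were called in either direction by limma with adjustment, and 1 was higher at an unadjusted p under 0.05. Without Vector replicate 2, 1 rose.

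**Figure D4:**
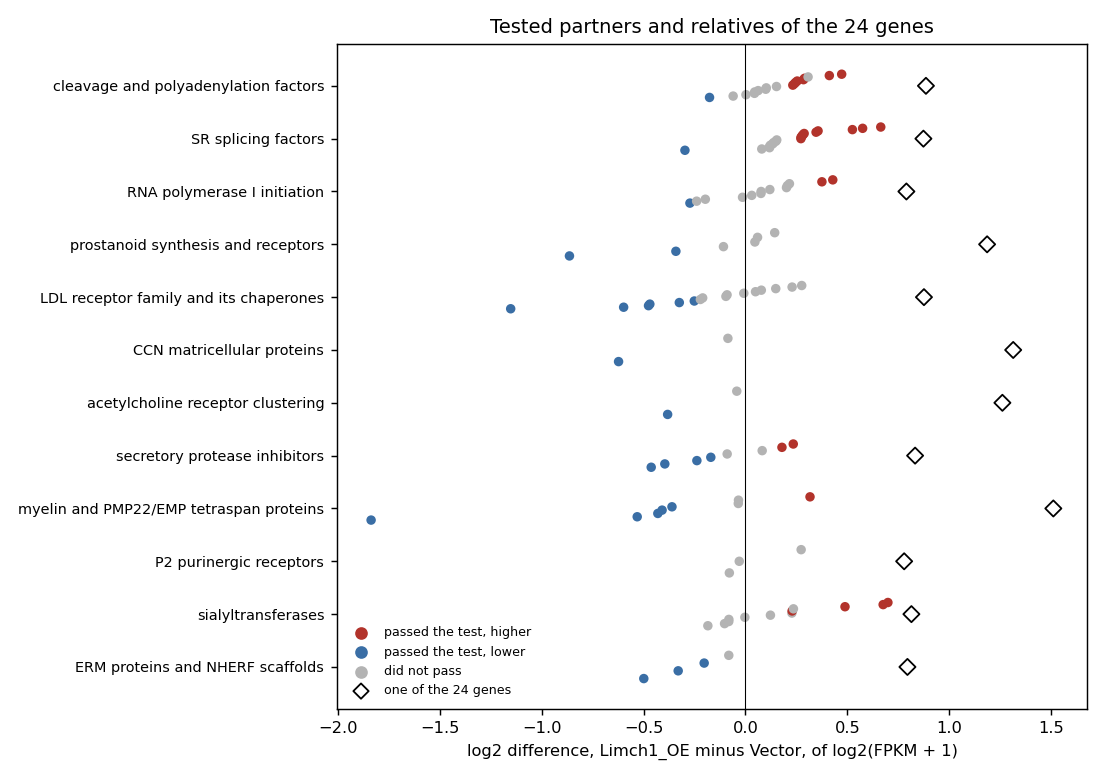
Log2 difference (Limch1_OE minus Vector, of log2(FPKM + 1)) of every tested gene in the 12 lists around the 24 genes; red points passed limma's test as higher, blue as lower, grey did not pass, and open diamonds are the members, placed by the same measure. The splicing list has 10 red points, and the list of the LDL receptor family with its chaperones and ligands has 6 blue points. The members, which were chosen for being higher, lie to the right of their partners in each list.

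The 10 broader lists gave no single direction. Over all of them, without the 24 genes, 37 of 207 tested genes (17.9%) rose and 39 (18.8%) fell, with a median log2 difference of 0.00, beside 20.2% and 14.4% over the table, and without Limch1_OE replicate 2, 24 rose. The list of xenobiotic and carbonyl metabolism holds Cyp2c55, Ephx1 and Cbr2, and of its 22 other tested genes 3 rose and 2 fell. Akr1c13, an aldo-keto reductase, rose by 0.56 ± 0.124 (adjusted p = 0.00885) but did not pass without a filter on low values (adjusted p = 0.0535), and 20 genes of that list were under 1 FPKM in both groups. Of 30 NRF2 targets 4 rose and 7 fell, and of 16 hormone-response genes 2 rose and 2 fell. Of 38 lysosome and autophagy genes 8 rose and 7 fell, among them Npc2, a carrier of cholesterol out of lysosomes, which fell by 1.04 (adjusted p = 3.782e-06), and Hexa, a hexosaminidase subunit, which fell by 0.94 (adjusted p = 0.000193). Of 38 transport genes 6 rose and 6 fell. Of 29 axon guidance genes 7 rose and 9 fell, with Nrp1, a semaphorin and VEGF co-receptor, up by 0.71 (adjusted p = 0.000648). Of 11 imprinted genes 4 rose and 1 fell, of 16 Wnt and Notch targets 1 rose and 3 fell, of 8 mammary genes 2 rose and 2 fell, and the 1 tested germline gene did not pass.

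Several of these small counts were lower with 1 library left out, as was the number of higher calls over the whole table. Each such fit has fewer libraries, and whether any single library was unusual was not tested. In the axon guidance list 4 genes rose without Limch1_OE replicate 1, 2 without Limch1_OE replicate 2, 3 without Vector replicate 1 and 2 without Vector replicate 3. Of the NRF2 targets 2 rose without Limch1_OE replicate 2 or Vector replicate 1, and 4 fell without Vector replicate 2. In the xenobiotic list 0 fell by limma without Limch1_OE replicate 1 or 2 or Vector replicate 3, and 1 fell without any other library. Of the Wnt and Notch targets 1 fell without Limch1_OE replicate 2 or any 1 Vector library. Of the mammary genes 1 fell without Limch1_OE replicate 1 or 2 or any 1 Vector library. Of the hormone-response genes 1 rose without Limch1_OE replicate 2 or Vector replicate 3, and of the imprinted genes 2 rose without Vector replicate 1.

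Location in the genome was the last property compared. Chromosome 2 held 5 of the 24 genes (20.8%, against 8.33% of the 7981 genes) and chromosome 1 held 3 (12.5% against 5.85%). The 5 were Phyhd1, Ptgs1, P2rx3, Rapsn and Slpi, at starts from 30266203 to 164354070. Of 46 nearest protein-coding neighbours, none of them a member, 29 were tested, and 8 rose (27.6%, against 20.2% over the table) and 4 fell (13.8%, against 14.4%). Without Vector replicate 2, 5 rose. Among the 8, E2f5, 4931406C07Rik and Cep295 overlap a member on the opposite strand, and how strand was treated is not given. Pagr1a, B230307C23Rik and Ssrp1 also overlap a member and did not pass.

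Ccn4 and St3gal1 lie on chromosome 15 on either side of Ndrg1, a gene of stress and differentiation on the minus strand whose 3′ end lies 6117 bases from Ccn4. Ndrg1 rose as well, by 0.34 ± 0.054 (adjusted p = 0.00181), at 265.65, 276.36 and 292.53 FPKM against 224.69, 223.59 and 208.78 FPKM. Ccn4 and St3gal1 had been chosen for being higher, and Zfat, on the far side of St3gal1, did not pass (0.12, adjusted p = 0.276). Dcxr, a reductase of the same enzyme family as Cbr2, lies 2208 bases from it and rose by 0.73 ± 0.169 (adjusted p = 0.0113), at 2.03, 2.83 and 2.76 FPKM against 0.65, 1.29 and 1.55 FPKM. On coding transcripts alone Dcxr did not pass. On the other side of Cbr2, Hmga1b fell by 0.52 (adjusted p = 0.000516), and Etv5, an ETS transcription factor next to Tra2b, fell by 0.70 (adjusted p = 0.000134). Both neighbours of Mr1 rose, Ier5 by 0.38 and Stx6 by 0.27 (adjusted p = 0.00921 and 0.00594).

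The membership moved with each condition. With a pseudocount of 0.1 in the ratio 42 genes qualified, all 24 among them. Summing only coding transcripts gave 28 genes and kept 20 of the 24, leaving out Mr1, Tra2b, Phyhd1 and P2rx3. Taking only the most abundant transcript gave 55 genes and kept 16. Rescaling by a trimmed mean of M values gave 20 genes, all among the 24, and lost Nudt21, Phyhd1, Taf1d and P2rx3. Quantile normalization gave 24 genes and kept 22, without Slc9a3r2 and P2rx3. Leaving out 1 library at a time gave 25 to 35 genes and kept 20 to 23. A ratio of at least 2 kept Pmp22, Cyp2c55, 2310007B03Rik, Gm42742, Ccn4, Rapsn, Lrrn4cl, Ptgs1 and Cbr2. Of the 24, 7 had a lowest Limch1_OE library more than 2 times the highest Vector library.

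**Figure D5:**
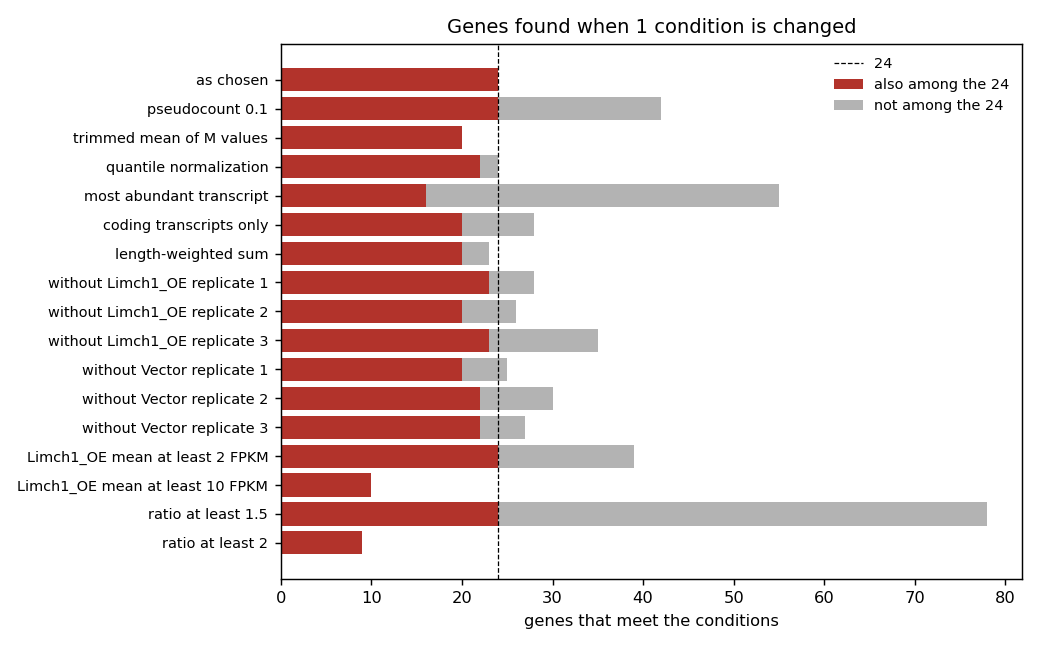
Number of genes (horizontal) that met the conditions as chosen and when 1 of them was changed (vertical), split into genes among the 24 (red) and others (grey); the dashed line marks 24. The count ranges from 9 at a ratio of 2 to 78 at a ratio of 1.5, and the most abundant transcript alone keeps 16 of the 24.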

How the data were processed

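The deposited table gives FPKM per transcript in each of the 6 libraries, made by the authors. Named in the submitters' processing notes are mm10, StringTie 2.2.1, featureCounts 2.0.1, fastp 0.23.2 and STAR 2.7.10, with no step attached to any of them. How strand and multi-mapped reads were treated is not given there. The table holds no counts, so the depth is unknown and no counting interval is given. FPKM of the listed transcripts were summed per gene, and symbols, positions and transcript types came from GENCODE release M21 (26033 of 26094 genes matched). The test covered 11842 genes that reached 1 FPKM in 3 libraries or more. It was limma 3.58.1 with a trend (R 4.3.3), two-sided, on the log2 of the deposited FPKM plus 1, with differences given as Limch1_OE minus Vector, Benjamini-Hochberg adjusted over all of them, threshold 0.05. The scale understates the change of low genes. The code was tested on simulated data. The design had assumed a table by gene, and groups follow the sample titles.

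The 24 genes and all lists were chosen with earlier results of these data known, and the 12 partner lists also with the 24 genes known. All members could be named. Relatives, neighbours and list genes were named at an absolute log2 difference of at least 0.5, at most 8 per group, and others (among them Tra2a, Cpsf6, Cstf2t, Pcf11, Agrn, Emp3, Ptgs2, Ccn1, Slc9a3r1, Ndrg1, Pagr1a, Ier5, Stx6, E2f5, 4931406C07Rik, Cep295, Zfat, Cpsf2, Srrm2, Srsf11, Sorl1, Calr, Plau and Plaur) because the text turns on them, after their values were seen. The lists were xenobiotic and carbonyl metabolism, NRF2 targets, hormone response, lysosome and autophagy, transport, axon guidance, imprinted genes, germline genes, Wnt and Notch targets and mammary genes. Alternatives were a pseudocount of 0.1, no filter, a trimmed mean of M values (trimming 30% of M and 5% of A), quantile normalization, a replicate block, the most abundant transcript, other level and ratio conditions, each library left out and, added after seeing the data, coding transcripts only and a length-weighted sum. The result of 1 gene is not reported here.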

Additional observations from a re-analysis of the deposited data

How the results depend on the processing

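Over the whole table, 2388 genes were called higher and 1706 lower. The most abundant transcript of each gene gave 997 higher and 999 lower, coding transcripts only 1534 higher, and leaving out 1 library 1578 to 2147 higher. Relatives that rose numbered 3 without a filter and 3 with the most abundant transcript, and 3 to 6 with 1 library left out. Neighbours that rose numbered 4 without a filter, 4 with the most abundant transcript, 5 with coding transcripts only and 5 to 8 with 1 library left out. In the broader lists the most abundant transcript gave 19 higher and 25 lower, and leaving out 1 library 24 to 34 higher. The conditions found 42 genes with a pseudocount of 0.1, 55 with the most abundant transcript, 39 and 10 at a level of at least 2 and 10 FPKM, 78 and 9 at a ratio of at least 1.5 and 2, and 25 to 35 without 1 library. The median log2 ratio of the 24 genes was 1.08 with the pseudocount of 0.1.

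Of 288 member values under the alternatives, 268 stayed within the spread between libraries, 19 moved beyond it and 1 reversed, Mr1 at -0.0634 on coding transcripts only. Among the other named genes, Clk1 was at -0.0478 with the most abundant transcript and with coding transcripts only, Srrm2 at -0.0528 and -0.0185, and Tra2a at 0.95 with coding transcripts only. Of 32 named genes outside the 24 that passed, 20 passed in the same direction under all alternatives run. The cause of these changes was not tested.

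The labels do not say whether replicate numbers pair the libraries. Same-numbered deviations correlated at -0.0017, 0.0456 and 0.0592, and differently numbered ones at -0.0674 to 0.0271. So few values cannot settle it. With the replicate number as a block 2219 genes were higher and 1589 lower. With no counts, what depth limits could not be assessed.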
